A study of Mus musculus with 4 samples.

Results

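The nuclear genes for subunits of the oxidative phosphorylation complexes were described across marker-gated classes of nuclei in mouse hippocampus. Members were the gene symbols listed in all 4 libraries whose names mark a subunit of complex I (Nduf), complex II (Sdh), complex III (Uqcr), complex IV (Cox4 to Cox8) or complex V, the ATP synthase (Atp5). This rule uses names only, with no measured value, and it gave 81 of 20211 symbols. Of these, 35 belong to complex I, 4 to complex II, 8 to complex III, 17 to complex IV and 17 to complex V. Ndufa4 was counted with complex IV, where its protein is found.

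Single-nucleus RNA libraries came from hippocampi of 4 genotypes, with 1 library for each. The labels name wild-type mice, mice with a global knockout of MAGL, mice with an astrocyte-specific knockout and mice with a neuron-specific knockout. MAGL, encoded by Mgll, breaks down the endocannabinoid 2-arachidonoylglycerol. The line that drives each cell type-specific deletion, the age of the mice and the number of animals in a library are stated neither in the labels nor in the files. The knockout libraries are called below by their labels, as the total, astrocyte and neuron libraries.

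Oxidative phosphorylation passes electrons from NADH (complex I) and succinate (complex II) through complexes III and IV to oxygen, and uses the resulting proton gradient to make ATP in complex V. Most subunits are encoded in the nucleus and imported, and a few core subunits of complexes I, III, IV and V are encoded in the mitochondrial genome. Complex II is wholly nuclear and is also an enzyme of the tricarboxylic acid (TCA) cycle. In the hippocampus, fast-spiking interneurons that express parvalbumin (Pvalb) are known for a high demand on mitochondrial respiration. A nuclear library counts transcripts in and around the nucleus, so a level here is not the level of protein or of the complex.

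The libraries held 8945 to 31243 barcodes and 81623644 to 193307038 UMIs (unique molecular identifiers, 1 per captured transcript), with a median of 5456 UMIs per barcode in the total library and 8904 in the wild-type library. Any pair of libraries shared between 108 and 466 barcode sequences. Dentate granule, CA1, CA2/CA3, inhibitory and glial markers were all present. Gates on fixed marker panels gave 1891, 4528, 2008 and 1614 dentate granule nuclei in the wild-type, total, astrocyte and neuron libraries, and 832, 1352, 1316 and 883 CA1 nuclei. Values for the 4 libraries are given in this order throughout. Astrocyte nuclei were few, at 92, 93, 23 and 56, and oligodendrocyte nuclei numbered 360, 1539, 40 and 62. Mgll itself was not lost where the labels would place the deletion. It stood at 119, 97.6, 138 and 129 CPM (counts scaled to a common total of the class's UMIs) in dentate granule nuclei, and at 462, 292, 432 and 534 CPM in astrocyte nuclei. Which part of Mgll was deleted is not stated, so UMIs from outside that part would check nothing.

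Promoter sequence of complex IV subunits 6a, 6b and 7b is shown first, because these subunits include paralogs that differ in how widely they are expressed. Cox6a2, also described below, has no entry in the table used. Cox6a1 is the broadly expressed form of subunit 6a, Cox6b1 and Cox6b2 are the broad and the testis form of subunit 6b, and Cox7b is an X-linked subunit. Each line gives the 250 bases before the RefSeq transcript start, less the 7 next to it (GRCm38.p6, gene strand, 5′ to 3′), with matches to the motifs named after them in capitals.
Cox6a1: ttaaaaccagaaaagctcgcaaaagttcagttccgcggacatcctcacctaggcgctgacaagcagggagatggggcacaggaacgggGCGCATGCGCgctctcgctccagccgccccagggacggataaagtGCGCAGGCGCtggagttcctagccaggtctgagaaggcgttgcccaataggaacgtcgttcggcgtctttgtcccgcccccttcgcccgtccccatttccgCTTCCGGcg
Cox6b1: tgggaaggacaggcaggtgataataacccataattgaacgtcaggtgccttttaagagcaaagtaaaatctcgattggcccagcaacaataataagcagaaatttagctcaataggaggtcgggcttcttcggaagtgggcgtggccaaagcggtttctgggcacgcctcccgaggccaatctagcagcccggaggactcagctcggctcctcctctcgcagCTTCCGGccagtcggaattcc
Cox6b2: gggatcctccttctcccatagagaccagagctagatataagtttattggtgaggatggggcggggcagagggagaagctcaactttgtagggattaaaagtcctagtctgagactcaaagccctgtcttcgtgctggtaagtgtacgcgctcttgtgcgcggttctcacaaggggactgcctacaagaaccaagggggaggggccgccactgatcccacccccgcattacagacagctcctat
Cox7b: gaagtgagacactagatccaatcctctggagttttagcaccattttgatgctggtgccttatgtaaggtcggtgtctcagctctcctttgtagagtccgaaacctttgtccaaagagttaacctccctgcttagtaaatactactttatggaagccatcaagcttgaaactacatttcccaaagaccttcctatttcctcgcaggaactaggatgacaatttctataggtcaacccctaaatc

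These windows lie at chr5:115348966-115349208 (minus strand), chr7:30626122-30626364 (minus), chr7:4753102-4753344 (minus) and chrX:106015450-106015692 (plus). The motifs were searched on both strands and named after the factors that bind them, namely NRF1 (GCGCA and GCGC with any 1 base between them), GABPA (CCGGAAG), YY1 (AAGATGGCG), the estrogen-related receptors (TCAAGGTCA) and MEF2 (CTA and TAG with any 4 bases between them). Cox6a1 held NRF1 matches at 2 places and a GABPA match, Cox6b1 held a GABPA match, and these letters were not in the Cox6b2 and Cox7b windows. RefSeq windows of 250 bases before to 50 bases after the start were matched to 67 of the 81 genes. The NRF1 motif was in 25.4% of these 67 genes, against 5.19% of 27025 genes. The GABPA motif was in 25.4% against 9.93%, and the YY1 motif in 10.4% against 1.64%. The estrogen-related receptor motif was in 2.99% against 0.466% and the MEF2 motif in 1.49% against 4.23%. A match describes letters in a window and does not show that a factor binds there.

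Among the neuron classes, the level summed over the 81 genes was highest in Pvalb nuclei and lowest in CA2/CA3 nuclei. Astrocyte nuclei held 5680, 4163, 4368 and 5159 CPM. The few vascular nuclei (11 to 31 per library) held 8579, 11319, 12002 and 14003 CPM. Their ribosomal protein transcripts stood at 19550 to 33149 CPM, against 2378 to 3646 CPM in dentate granule nuclei. The part of such transcripts in the vascular level was not tested. Choroid plexus nuclei, of which 89 and 40 were in the wild-type and total libraries, held 8511 and 7903 CPM there. In Pvalb nuclei the sum was 4981, 3712, 4078 and 3707 CPM. In inhibitory nuclei with at most 1 Pvalb-panel marker it was 4013, 3134, 3116 and 2924 CPM, and in dentate granule nuclei 3287, 2710, 2577 and 2422 CPM. The order Pvalb, other inhibitory, dentate granule, CA1, CA2/CA3 was the same in each of the 4 libraries. CA1 nuclei held 2857, 2440, 2410 and 2153 CPM, and CA2/CA3 nuclei 2607, 2254, 2275 and 2080 CPM. Within each of these neuron classes the wild-type library was the highest, as the plot of summed levels shows.

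**Figure D1:**
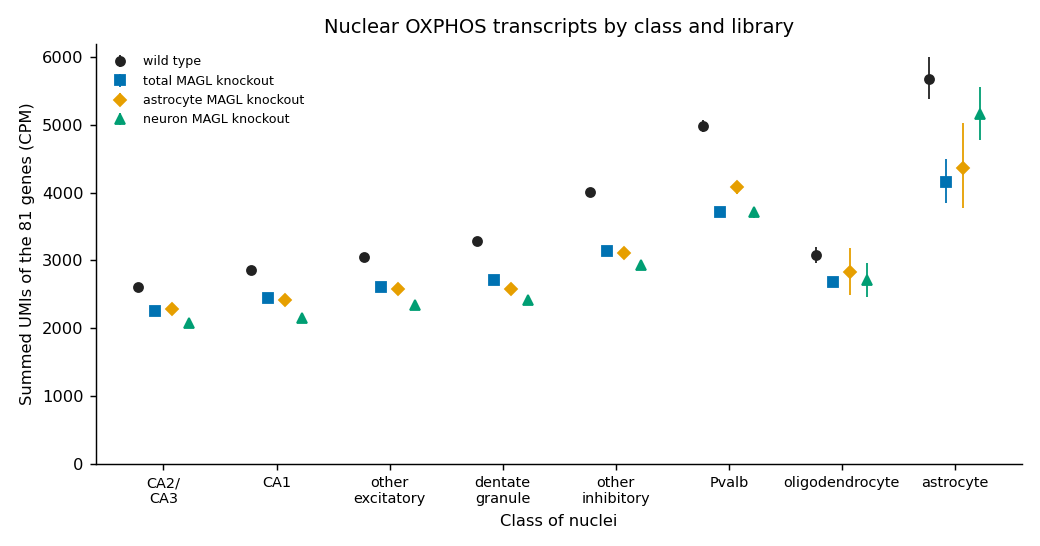
Summed UMIs of the 81 nuclear oxidative phosphorylation genes in CPM of the class (y axis, from 0) by class of nuclei (x axis) and library (colour and symbol), with 95% Poisson intervals that cover counting error only. Pvalb nuclei sit at 3707 to 4981 CPM, above the 2080 to 2607 CPM of CA2/CA3 nuclei.

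Inhibitory neurons carried more transcript of nearly every subunit than excitatory neurons. Excitatory nuclei pool the dentate granule, CA1 and CA2/CA3 gates with other excitatory nuclei that passed none of these. The latter were 3363 of 6384, 11114 of 17479, 4160 of 8050 and 3563 of 6382 excitatory nuclei. In the edgeR quasi-likelihood test with library as a block (4 libraries, Benjamini-Hochberg adjustment over all genes), 71 of 80 tested members were higher and 1 was lower in inhibitory nuclei. Cox6a2 and Cox6b2 passed the filter on low counts through inhibitory nuclei alone and so had to differ. Of the 77 members past it in every library of both classes, 69 were higher and 1 lower. The background in this comparison was 32.4% of all 18454 genes higher and 29.1% lower. The median member differed by 0.31 on the log2 scale and the median gene by 0.02. The summed level was 1.39, 1.25, 1.31 and 1.33 times that of excitatory nuclei in the 4 libraries, and 73 members were higher in each of the 4, as were 46.3% of all genes. Without the library block 39 members were higher and none lower, where 27.1% and 25.0% of all genes were. The rise was spread over the complexes, with 30 of 35 members of complex I higher, 4 of 4 of complex II, 8 of 8 of complex III, 14 of 16 of complex IV and 15 of 17 of complex V.

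Core and accessory subunits were both among the members called higher, and the core subunit Ndufs3 was called lower. In complex I, Ndufs1, which carries electrons as an iron-sulfur protein, stood at 98.7, 91.6, 103 and 105 CPM in inhibitory nuclei and at 82.3, 76.3, 84.0 and 85.2 CPM in excitatory nuclei (log2 difference 0.19, 95% interval 0.11 to 0.27, adjusted p = 0.0013). Ndufv1, the subunit that oxidises NADH, was 0.19 higher (interval 0.05 to 0.33). All inhibitory values of Ndufs1 were above all excitatory values. The accessory subunit Ndufb5 showed the largest difference in complex I, at 61.3, 43.7, 47.2 and 51.9 CPM against 38.0, 29.4, 28.5 and 27.9 CPM (0.63, interval 0.51 to 0.75, adjusted p = 1.2e-05). Its groups did not overlap either. The gene of Ndufb5 overlaps Mrpl47 on the opposite strand, and the labels do not state whether strand was used in counting.

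Among the other complexes, the flavoprotein Sdha of complex II was 0.31 higher (interval 0.23 to 0.39) and its iron-sulfur partner Sdhb 0.22 higher (0.14 to 0.31). Uqcrc1, a core protein of complex III, was 0.29 higher and the Rieske iron-sulfur protein Uqcrfs1 0.44 higher. In complex V, the catalytic beta subunit Atp5b was 0.31 higher (0.23 to 0.40) and the alpha subunit Atp5a1 was 0.48 higher (0.38 to 0.57), with Atp5a1 at 151, 124, 121 and 114 CPM against 94.1, 92.2, 82.0 and 74.9 CPM. The groups of Atp5a1 did not overlap.

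In complex IV, Cox5a, a subunit of the matrix side, was 0.62 higher (interval 0.53 to 0.71), at 95.5, 66.2, 75.5 and 65.1 CPM against 55.6, 44.7, 44.4 and 39.2 CPM. Cox7b was 0.63 higher (0.54 to 0.72), at 142, 104, 110 and 95.5 CPM against 79.0, 67.2, 68.0 and 58.8 CPM. Both kept every inhibitory library above every excitatory one. Cox4i1, Cox8a and Cox7a2 were 0.40, 0.33 and 0.38 higher, and Ndufa4 was 0.43 higher. The other X-linked members were Ndufb11, which was 0.29 higher, and Ndufa1, whose difference was 0.07 (interval -0.07 to 0.22, adjusted p = 0.33).

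A few members did not follow the rest. The complex I core subunit Ndufs3 was called lower, by a log2 difference of -0.18 (interval -0.27 to -0.09), at 49.4, 38.5, 45.2 and 44.3 CPM in inhibitory and 49.1, 42.5, 49.6 and 47.1 CPM in excitatory nuclei. Its groups overlap, and on the plain CPM scale it was not lower in the wild-type library, since the edgeR scaling lies 0.09 below CPM in this comparison. Ndufs3 shares its locus with Kbtbd4 on the opposite strand. The c-ring of ATP synthase is encoded by 3 genes with the same mature protein. Atp5g1 and Atp5g3 were 0.38 and 0.41 higher, while Atp5g2 differed by -0.02 (interval -0.14 to 0.11).

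**Figure D2:**
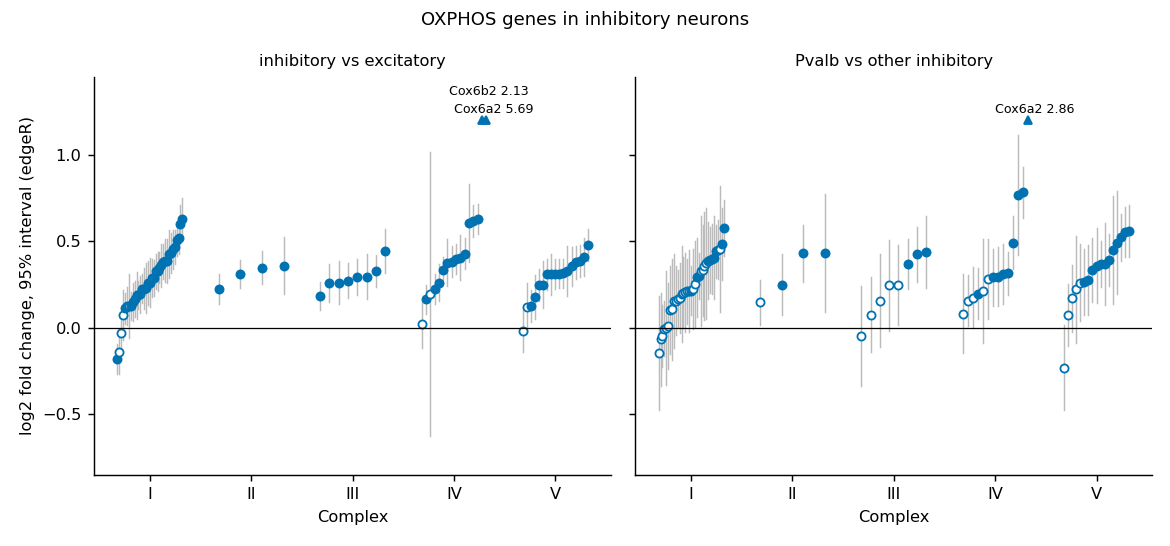
Log2 fold change (y axis) of each tested member by complex (x axis) in inhibitory against excitatory nuclei and in Pvalb against other inhibitory nuclei, with edgeR 95% intervals over 4 libraries. Filled points passed an adjusted p of 0.05, and triangles mark members beyond the axis with their value written beside them. In the left panel 71 of 80 members are filled above 0, and in the right panel 38 of 78.

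By gene length, genes under 5 kb, of 5 to 10 kb and of 10 to 30 kb had median member differences of 0.29, 0.33 and 0.30, against 0.05, 0.06 and 0.04 for other genes of the same lengths. The 2 members of 30 to 100 kb had a median of 0.15 and the 2 longer ones 0.37. Transcripts of the cytosolic ribosomal proteins, which are found mostly in the cytoplasm, had 9 of 81 genes higher and 11 lower, with a median of 0.00. Of the 13 subunits encoded in the mitochondrial genome, 9 were higher and none lower. Of 16 TCA cycle genes 14 were higher and 1 lower, of 16 glycolysis genes 10 and 4, and of 43 assembly factors of the complexes 19 and 1. The excitatory marker panel summed to 451, 752, 512 and 453 CPM in inhibitory nuclei and to 2565 to 2721 CPM in excitatory nuclei, with none of its 6 markers at 0 in either, and its part in these differences was not tested.

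Within inhibitory neurons, the Pvalb nuclei stood higher again. Of 78 tested members 38 were higher and none lower than in other inhibitory nuclei. The background was 17.3% of all genes higher and 17.6% lower. Cox6a2 of complex IV, which is among the 38, was short of the count filter in other inhibitory nuclei of the astrocyte and neuron libraries. Of the 77 members past the filter in every library of both classes, 37 were higher and none lower. In all 13188 genes the median difference was -0.01, and in the members 0.28. The summed level was 1.24, 1.18, 1.31 and 1.27 times that of other inhibitory nuclei. Complex I had 11 of 35 members higher, complex II 3 of 4, complex III 3 of 8, complex IV 9 of 14 and complex V 12 of 17. At an unadjusted p under 0.05, 51 members were higher and none lower, against 21.5% of all genes higher and 21.9% lower. The DESeq2 Wald test called 20 members higher and none lower, at a background of 11.0% and 11.9% of all genes. The fit without the library block called 25 higher and none lower, at 13.3% and 13.9%.

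Cox7b led the broadly expressed genes, at 197, 146, 160 and 159 CPM in Pvalb nuclei and 121, 93.4, 93.8 and 77.5 CPM in other inhibitory nuclei (0.78, interval 0.64 to 0.93, adjusted p = 8.6e-07). Every Pvalb value lay above every other inhibitory value. Cox7b2, its autosomal paralog, was 0.77 higher (0.42 to 1.11) on 25 to 33 UMIs per library in Pvalb nuclei. Ndufb5 and Atp5a1 were 0.58 and 0.56 higher. Ndufs1 was 0.44 higher (0.29 to 0.60) and Atp5b 0.39 higher (0.24 to 0.54). Cox5a was 0.49 higher and Cox4i1 0.32 higher, while Sdha differed by 0.15 (interval 0.02 to 0.28, adjusted p = 0.076) and Ndufa4 by 0.16 (adjusted p = 0.095). Of the c-ring genes Atp5g1 was 0.33 and Atp5g3 0.36 higher, and Atp5g2 differed by -0.23 (interval -0.47 to 0.02, adjusted p = 0.14).

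The genes around the complexes differed between the Pvalb and other inhibitory nuclei as well. Of 16 TCA cycle genes 14 were higher and none lower, of 16 glycolysis genes 9 and 3, and of 43 assembly factors 14 and 1. Of 15 tested regulators of mitochondrial genes 8 were higher and none lower. Ppargc1a, the coactivator that raises mitochondrial gene expression, was 1.42 higher (interval 1.27 to 1.57), and Esrrg, a nuclear receptor that works with it, 1.58 higher (1.46 to 1.69). Both were picked from the list after their values were seen. The mitochondrial-genome subunits showed none of 10 called in either direction by edgeR, with 4 lower at an unadjusted p under 0.05 and a median of -0.49. Ribosomal protein genes had none of 80 higher and 31 lower, the opposite direction to the members. In nuclei of 3000 to 10000 UMIs, 37 members were higher and none lower, at a background of 14.7% and 14.2%.

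Cox6a2 had the largest fitted difference of the members between inhibitory and excitatory nuclei. This gene encodes the form of subunit 6a known from heart and skeletal muscle, and lies at chr7:128205435-128206387 (minus strand, GRCm38), where it overlaps Itgad on the opposite strand. Inhibitory nuclei held 107, 133, 69 and 76 of its UMIs, or 9.71, 5.05, 5.74 and 5.17 CPM, and excitatory nuclei held 12, 9, 8 and 6 UMIs, or 0.178, 0.0751, 0.116 and 0.0989 CPM. The fitted log2 difference was 5.69 (interval 5.30 to 6.08). It is given as a description, since the gene was past the count filter in inhibitory nuclei only. All inhibitory values lay far above all excitatory ones. The Pvalb marker panel summed to 6.0, 14.7, 8.32 and 7.60 CPM in excitatory nuclei and to 1183 to 1502 CPM in Pvalb nuclei, and its part in the few excitatory UMIs was not tested.

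Pvalb nuclei held more of this signal per UMI than other inhibitory nuclei, at 28.6, 12.3, 24.9 and 16.9 CPM of Cox6a2 (66, 37, 42 and 35 UMIs). Other inhibitory nuclei held 3.39, 3.28, 1.91 and 1.56 CPM (19, 57, 14 and 14 UMIs), a fitted log2 difference of 2.86 (interval 2.25 to 3.46). It is given as a description, since other inhibitory nuclei were past the count filter in the wild-type and total libraries only. The groups did not overlap. Nuclei gated as Lamp5 interneurons, a type that includes neurogliaform cells, followed with 13.3, 4.51, 6.82 and 1.93 CPM, on 8, 9, 6 and 2 UMIs. Nuclei gated as Sst interneurons held 0.494 to 2.33 CPM and those gated as CCK interneurons 0 to 2.42 CPM. With so few UMIs in the Lamp5, Sst and CCK gates, their order is not resolved beyond counting error in every library.

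The overlapping gene Itgad had 2, 2, 4 and 2 UMIs in Pvalb nuclei, or 0.867, 0.665, 2.37 and 0.965 CPM, and 28, 50, 23 and 48 UMIs in other inhibitory nuclei, or 4.99, 2.88, 3.15 and 5.37 CPM. Its fitted difference was -1.83 (interval -2.72 to -0.94), given as a description on these few UMIs. In inhibitory and excitatory nuclei the gene had 36, 67, 30 and 61 against 3, 9, 5 and 3 UMIs, so like Cox6a2 it was at a higher CPM in inhibitory nuclei of every library. The part of reads shared between these genes was not tested. The paralog Cox6a1 was broad, at 80.3, 61.7, 59.6 and 57.9 CPM in inhibitory and 53.4, 47.4, 44.8 and 40.6 CPM in excitatory nuclei, a difference of 0.38 (interval 0.29 to 0.48). Between Pvalb and other inhibitory nuclei it differed by 0.29 (0.13 to 0.46).

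**Figure D3:**
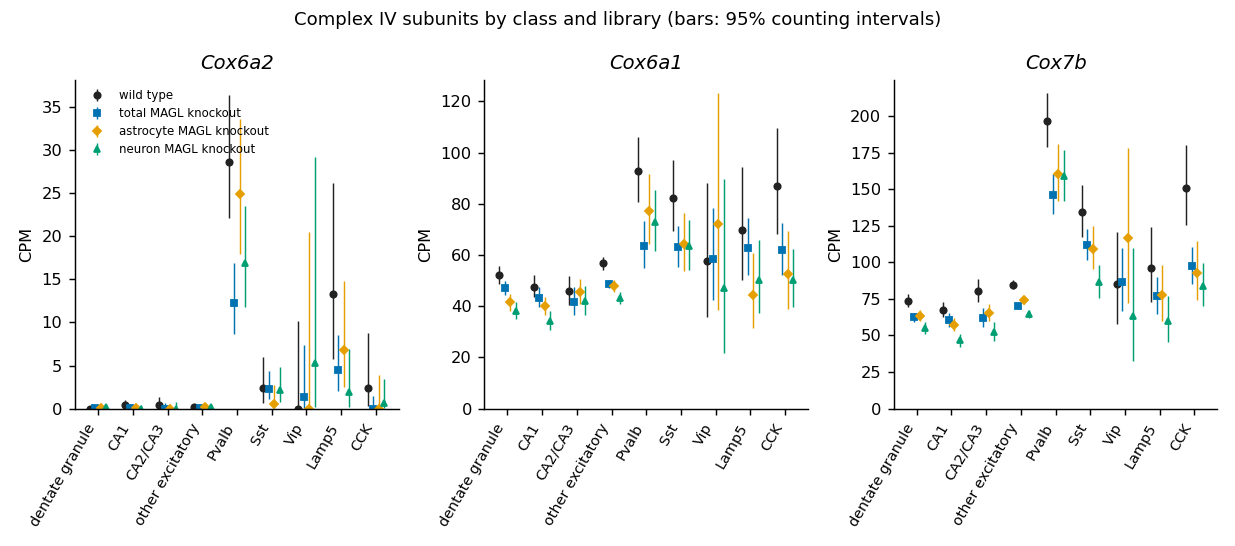
CPM (y axes, each from 0) of Cox6a2, Cox6a1 and Cox7b by class of nuclei and library, with 95% Poisson intervals for counting error only. Cox6a2 reaches 28.6 CPM in wild-type Pvalb nuclei and stays under 1 CPM in the excitatory classes, while Cox6a1 and Cox7b are present in all classes.

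Cox4i2, Cox7a1 and Cox6b2, other tissue-restricted paralogs, had few UMIs. Over all gated nuclei Cox4i2, the lung form of subunit 4, had 67 UMIs, and Cox7a1, the muscle form of subunit 7a, had 103. Cox6b2 had 130 UMIs, of which 15 and 4 were in the choroid plexus nuclei of the wild-type and total libraries (36.0 and 35.4 CPM). Inhibitory nuclei held 5, 16, 4 and 9 of its UMIs (0.454, 0.607, 0.332 and 0.612 CPM) and excitatory nuclei 4, 26, 3 and 4 (0.0594, 0.217, 0.0434 and 0.0659 CPM), and no test is given because it passed the count filter through inhibitory nuclei alone. Cox6b1 was 0.40 higher (0.28 to 0.53) on at least 474 UMIs per library. Cox8b was listed in 1 library only and is therefore no member.

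Summed over the members, dentate granule nuclei held 1.15, 1.11, 1.07 and 1.13 times the level of CA1 nuclei. In each of the 4 libraries 45 members were higher and 4 lower, as were 39.5% and 27.9% of all genes. Of 77 tested members 23 were higher and 4 lower in dentate granule nuclei, at a background of 29.1% of all genes higher and 28.6% lower, so the share of higher members (complex I 9, complex III 2, complex IV 7, complex V 5) was near that of all genes and the share of lower members below it. The largest rises were in Cox7b2 (0.60), the c-ring gene Atp5g2 (0.46), Ndufb4 (0.40), Cox6c (0.38) and Ndufa1 (0.34). Atp5g2 stood at 43.5, 32.1, 32.4 and 28.1 CPM against 27.6, 21.4, 23.7 and 21.3 CPM, and each dentate granule value was above all CA1 values. The falls were in Sdhb (-0.34, interval -0.44 to -0.24), Ndufa10 (-0.32), Ndufa12 (-0.17) and Atp5d (-0.17). Without the wild-type library Ndufa1 was at 0.20 (adjusted p = 0.15) and without the neuron library at 0.31 (0.092). Ndufa12 and Atp5d lost their calls without the total, the astrocyte or the neuron library, with adjusted p from 0.052 to 0.22.

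In nuclei of 3000 to 10000 UMIs, 5 members were higher and 6 lower, both below the share of all genes there (25.6% and 24.5%). CA1 nuclei were deeper than dentate granule nuclei, with medians of 11617 and 8119 UMIs in the wild-type library, and the part of depth was not tested. Ribosomal protein genes had 75 of 80 higher with a median of 0.51, and mitochondrial-genome subunits 10 of 11, and their part in the members' difference was not tested.

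CA2/CA3 nuclei were lower than CA1 nuclei for 22 of 77 members and higher for 2, at a background of 21.7% lower and 20.9% higher. The falls were largest in Ndufa5 (-0.46), the core subunit Ndufs8 (-0.45), Uqcrfs1 (-0.42), Ndufa13 (-0.38) and Ndufb10 (-0.36), and complex I held 12 of the 22. Ndufa5 stood at 21.1, 17.1, 14.3 and 11.3 CPM in CA2/CA3 and at 28.1, 20.7, 20.3 and 18.8 CPM in CA1 nuclei. Its groups overlap across libraries, and within each library CA2/CA3 was the lower. Cox7a2l, which joins complexes III and IV into supercomplexes, was 0.22 higher and Cox7b 0.16 higher. Ndufs8 was at -0.30 without the wild-type library (adjusted p = 0.19) and at -0.43 without the astrocyte library (0.076), where Uqcrfs1 was at -0.35 (0.060). Cox7a2l and Cox7b lost their calls without the wild-type or the astrocyte library, and Cox7a2l also without the neuron library, with adjusted p from 0.091 to 0.22. In nuclei of 3000 to 10000 UMIs, which left 3 libraries, 2 members were lower and none higher, at a background of 11.6% and 11.5%, and Uqcrfs1 was at 0.0061 (adjusted p = 0.99). Under a stricter gate 9 were lower, with the DESeq2 Wald test 4, and without the library block 6, where 16.4%, 13.7% and 16% of all genes were. CA2/CA3 nuclei were deeper, with a median of 17891 UMIs against 11617 in CA1 nuclei of the wild-type library, and the part of depth was not tested. Of the CA2/CA3 nuclei, 188 of 298, 377 of 485, 402 of 566 and 221 of 322 held just the minimum number of markers. Ribosomal protein genes had 41 of 80 lower and 1 higher, with a median of -0.23, where the median member was at -0.12. Of the 11 mitochondrial-genome subunits tested none was called. The part of either list in the members' difference was not tested.

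Astrocyte nuclei were few in every library. Oligodendrocyte nuclei numbered 40 and 62 in the astrocyte and neuron libraries, against 360 and 1539 in the wild-type and total libraries. Against excitatory nuclei, oligodendrocyte nuclei had 24 of 77 members lower and 1 higher (background 33.8% and 17.4%), so neither share was above that of all genes, and astrocyte nuclei had 6 higher and none lower (background 11.2% and 20.3%, with 9 higher and none lower at an unadjusted p under 0.05, where 13.5% and 25.6% of all genes were, and 3 higher by the DESeq2 Wald test, where 10.9% of all genes were). The edgeR scaling lay 0.68 below plain CPM for oligodendrocytes and 1.2 below it for astrocytes. On plain CPM, with 1 UMI added, the median member was 0.24 higher in oligodendrocytes where the median gene was 0.63 higher, and 0.99 higher in astrocytes where the median gene was 1.14 higher. By edgeR the median member was at -0.24 in oligodendrocytes and 0.21 in astrocytes, where the median genes were at -0.32 and -0.46. The members thus lay below the median gene on plain CPM and above it by edgeR in both classes, and in oligodendrocytes the sign of their median changed as well. A scaling factor is the same for every gene of a library. Plain CPM also had 1 UMI added, whose part in this change of order was not tested. In oligodendrocytes Atp5md, a small subunit of ATP synthase, had 4, 18, 2 and 4 UMIs, or 4.36, 7.02, 21.7 and 23.5 CPM, against 39.7, 33.0, 29.7 and 27.2 CPM in excitatory nuclei (-2.44, interval -3.12 to -1.76). Atp5mpl and the c-ring gene Atp5g1 differed by -1.94 and -1.55, on 3, 10, 1 and 5 and on 17, 21, 1 and 6 UMIs in oligodendrocytes. Atp5k had 0, 9, 2 and 1 UMIs there and was short of the count filter in the wild-type library, so its fitted fold is not given. Without the total library Atp5mpl was at -1.18 (adjusted p = 0.09) and Atp5g1 at -1.01 (adjusted p = 0.032). Cox7b2 had 4 UMIs in oligodendrocytes, all in the total library, against 382, 722, 350 and 276 in excitatory nuclei, and its fitted fold is not given because the other 3 libraries were at 0. Of the 63 members past the count filter in every library of both classes, 16 were lower and 1 higher. On plain CPM the summed level in oligodendrocytes was 1.01, 1.03, 1.12 and 1.17 times that of excitatory nuclei. There, 20 members were higher and 4 lower in each of the 4 libraries, as were 42.5% and 15.6% of all genes. Of the 25 called members, 5 held their direction in each of the 4 libraries. The wild-type and total libraries, which hold most of the oligodendrocytes, were the lower ones for Atp5md.

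Ndufa3 was the member called higher in oligodendrocytes (0.61, interval 0.12 to 1.11), a call lost without the wild-type (adjusted p = 0.38), the total (0.17) or the astrocyte library (0.067). In astrocytes the rises were led by the complex I accessory subunits Ndufs5 (1.15), Ndufa7 (1.03) and Ndufc2 (0.91), Uqcrh of complex III (0.89) and Cox8a (0.84). Ndufs5 stood at 117, 162, 45.5 and 105 CPM on 27, 26, 2 and 14 UMIs, above 39.5, 35.1, 30.4 and 29.4 CPM in excitatory nuclei, and all 4 astrocyte values were the higher. Without the total library, 7 members were lower and none higher in oligodendrocytes, where 23.2% and 12.9% of all genes were. Without the wild-type library 1 member, Ndufs5, was higher in astrocytes (1.16), while Ndufa7 was at 0.73, Ndufc2 at 0.35, Uqcrh at 0.50 and Cox8a at 0.73, with adjusted p from 0.10 to 0.60. Without the neuron library Cox8a was at 0.63 (adjusted p = 0.12). Median depth in the wild-type library was 2550.5 UMIs in astrocyte and 2032.5 in oligodendrocyte nuclei, against 9560.5 in excitatory nuclei. By edgeR, ribosomal protein genes had 14 of 81 higher and none lower in astrocytes, with a median of 0.51. In oligodendrocytes they had 10 of 80 higher and 3 lower, with a median of 0.12. The 11 tested mitochondrial-genome subunits had medians of 2.72 in astrocytes, with 1 called higher, and 0.97 in oligodendrocytes, with none called. The part of either list in the members' differences was not tested. The excitatory panel summed to 263, 361, 22.8 and 105 CPM in astrocytes, with 5 of its 6 markers at 0 in the astrocyte library, and to 59.9, 241, 109 and 112 CPM in oligodendrocytes, and its part was not tested. Glial nuclei with more than 2 of these markers were left out by the gate, so these sums are limited by it and cannot gauge carried-over neuronal transcripts.

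Between genotypes, the members stood lower in each knockout library than in the wild-type library in dentate granule, CA1, CA2/CA3, other excitatory and inhibitory nuclei. Medium spiny nuclei, of which 22 and 603 were in the wild-type and total libraries, held 2947 and 3035 CPM of the members there. There is 1 library per genotype, so no test was possible, every interval covers counting error only, and the 3 ratios share the wild-type library. In dentate granule nuclei the log2 ratio of the summed members to wild type was -0.28 in the total, -0.35 in the astrocyte and -0.44 in the neuron library. In CA1 nuclei it was -0.23, -0.25 and -0.41, and in inhibitory nuclei -0.38, -0.35 and -0.46. The neuron library was the lowest in each of these classes.

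Taking members with at least 100 UMIs over the pair of libraries, 74, 75 and 74 of 77 lay below wild type in dentate granule nuclei of the total, astrocyte and neuron libraries, against 57.9%, 58.4% and 55.2% of all genes. Lower by more than 1.5-fold were 2, 19 and 30 of the 77, at a background of 4.61%, 3.3% and 3.55% of all genes, and none was higher by as much, at a background of 4.2%, 2.11% and 1.01%. In CA1 nuclei 4 of 77, 5 of 76 and 30 of 76 were lower by more than 1.5-fold, at a background of 3.46%, 1.72% and 3.19%, and none was higher, at 3.05%, 1.5% and 1.07%. In inhibitory nuclei 13, 17 and 30 of 78 were lower by as much, at a background of 5.43%, 3.33% and 4.11%, and none was higher, at 3.79%, 1.71% and 1.49%. In dentate granule nuclei of the total library the members' share was thus below the background. The total library differed from the other 3 in mouse sex. Nuclei with Xist and no Y-linked UMI made up 44.1%, 0.02%, 41.6% and 39.2% of dentate granule nuclei. With male nuclei only, the summed ratios were -0.20, -0.27 and -0.30 in dentate granule and -0.11, -0.10 and -0.25 in CA1 nuclei, and members lower by more than 1.5-fold numbered 11 in the astrocyte and 11 in the neuron library in dentate granule nuclei, at a background of 2.62% and 2.36% of all genes. In male CA1 nuclei 2 of 75, 1 of 70 and 9 of 69 were lower by as much, at 3.01%, 1.93% and 1.93%. In CA1 nuclei of 3000 to 10000 UMIs the summed ratios were -0.42, -0.43 and -0.46, and 22 of 73, 24 of 71 and 23 of 60 members were lower by more than 1.5-fold, at 6.45%, 4.5% and 3.34% of all genes. The counts in CA1 nuclei thus changed with both choices of nuclei.

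The size of the difference varied by subunit. Of the 29 ratios chosen by size, at most 6 per knockout library and class, 12 moved beyond their counting interval in male nuclei, all nearer to 0, and 6 in nuclei of 3000 to 10000 UMIs, 5 of them farther from 0. In complex I, the accessory subunit Ndufc1 had 21.5, 15.5, 12.9 and 9.61 CPM in dentate granule nuclei, with a ratio of -1.16 in the neuron library (interval -1.47 to -0.87). In CA1 nuclei it had 14.3, 13.7, 10.1 and 10.5 CPM, a ratio of -0.45 in the neuron library. Ndufs8, a core iron-sulfur subunit near the quinone site, had 14.8, 7.50, 10.4 and 7.64 CPM in dentate granule and 14.6, 6.69, 9.94 and 7.06 CPM in CA1 nuclei. It was lowest in the total and neuron libraries in both classes, with ratios of -0.98 and -0.95 in dentate granule and of -1.12 and -1.05 in CA1 nuclei. In male nuclei they were -0.56 and -0.38 in dentate granule and -1.01 and -0.83 in CA1 nuclei. Ndufs7, its neighbour in the complex, had a ratio of -0.69 in CA1 nuclei of the total library. Accessory subunits Ndufa6 (-0.71 in dentate granule nuclei of the astrocyte library), Ndufs6 (-0.88 in CA1 nuclei of the astrocyte and of the neuron library) and Ndufa2 (-0.94 in CA1 nuclei of the neuron library) were among the lowest.

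Ndufs1, by contrast, had 87.0, 78.4, 84.4 and 90.6 CPM in dentate granule nuclei and 81.9, 73.7, 83.9 and 83.4 CPM in CA1 nuclei. Its ratios in the astrocyte and neuron libraries had intervals that include 0 in both classes. Ndufv1 had ratios of -0.47, -0.66 and -0.27 in dentate granule nuclei.

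By the median of its 4 genes, complex II stood closest to wild type. Their median ratio in dentate granule nuclei was -0.06, 0.02 and -0.03, where the medians of complex I were -0.34, -0.49 and -0.51. In CA1 nuclei complex II was at -0.12, 0.04 and 0.00 and complex I at -0.22, -0.29 and -0.45. Sdha had 66.1, 73.0, 73.5 and 68.4 CPM in dentate granule nuclei and 70.0, 75.4, 67.0 and 66.3 CPM in CA1 nuclei, with the wild-type library not the highest in either class. Sdhb had ratios of -0.20, -0.09 and -0.10 in dentate granule nuclei. The membrane anchor Sdhd was the lowest of the 4 in the total library. It had 10.3, 7.06, 10.2 and 8.40 CPM in dentate granule and 8.56, 5.46, 9.70 and 9.14 CPM in CA1 nuclei. Its ratio in the total library was -0.55 (interval -0.86 to -0.25) and -0.65 (-1.14 to -0.16), and -0.80 (-1.11 to -0.48) in inhibitory nuclei. The complex II ratios of the total library ran from -0.55 to 0.14 in dentate granule and from -0.65 to 0.30 in CA1 nuclei. In each of these classes 2 of the 4 had intervals below 0 and 1 had an interval above 0. The median near 0 there thus holds ratios of opposite sign. No test of complex II against the other complexes was made. Sdha, Sdhb and Sdhc are long for members, at 28.03, 17.99 and 23.44 kb, while Sdhd has 7.46 kb, as does the median member. The part of gene length in the place of complex II was not tested.

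**Figure D4:**
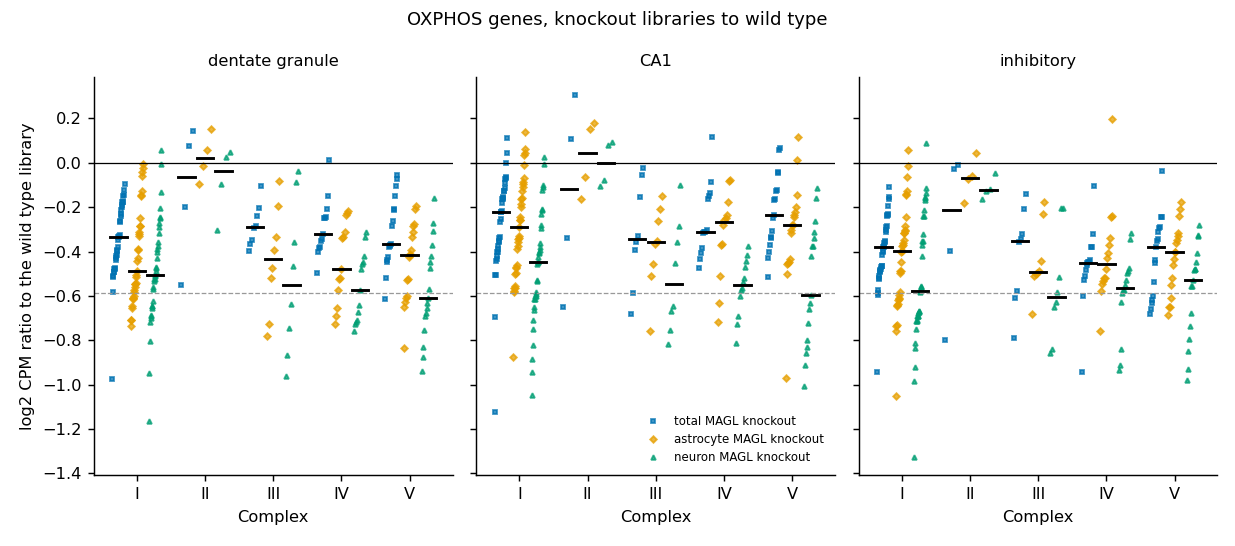
Log2 CPM ratio to the wild-type library (y axis) of each member with at least 100 UMIs, by complex (x axis) and knockout library (colour and symbol), in dentate granule, CA1 and inhibitory nuclei. Black bars are medians and the dashed line marks 1.5-fold lower. The median of complex II lies nearest to 0 in each panel, and in dentate granule nuclei it runs from -0.06 to 0.02.

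In complex III, the small subunits Uqcr11 and Uqcrq had ratios of -0.96 and -0.87 in dentate granule nuclei of the neuron library and of -0.78 and -0.73 in the astrocyte library, and Uqcrb had -0.68, -0.76 and -0.82 in CA1 nuclei. In male CA1 nuclei Uqcrb was at -0.34 in the total and -0.08 in the astrocyte library. The core protein Uqcrc1 had 25.9, 22.5, 24.5 and 25.3 CPM in dentate granule nuclei, and its ratios in the astrocyte and neuron libraries had intervals that include 0. Uqcrfs1 had -0.35, -0.34 and -0.36. In complex IV, Cox5b had 43.7, 30.9, 26.4 and 25.8 CPM in dentate granule and 35.5, 25.5, 21.6 and 20.3 CPM in CA1 nuclei, so that wild type was the highest in both. Its ratio was -0.73 in dentate granule and -0.72 in CA1 nuclei of the astrocyte library. Cox7a2 had -0.63 in CA1 nuclei of that library. Cox4i1 had -0.32, -0.31 and -0.57 in dentate granule nuclei, Cox5a -0.34, -0.52 and -0.67, Cox6a1 -0.15, -0.33 and -0.45, Cox8a -0.40, -0.65 and -0.73, and Ndufa4 -0.39, -0.48 and -0.64.

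In complex V, the central-stalk subunit Atp5e had 17.4, 13.0, 9.78 and 9.08 CPM in dentate granule and 14.4, 13.2, 7.35 and 7.17 CPM in CA1 nuclei. It was lowest in the astrocyte and neuron libraries in both classes, with ratios of -0.83 and -0.94 in dentate granule and of -0.97 and -1.01 in CA1 nuclei. Of the peripheral-stalk subunits in the neuron library, Atp5h had a ratio of -0.88 in dentate granule nuclei and Atp5j had -0.91 in CA1 nuclei. Atp5h has near-identical copies elsewhere in the genome, as do 19 members in all. Cox6c, Cox7b, Ndufs3, Ndufs5 and Uqcrb are among the 19. Reads from such copies cannot be told apart here. The c-ring genes were lower together, with ratios in dentate granule nuclei of -0.61, -0.60 and -0.83 for Atp5g1, -0.44, -0.42 and -0.63 for Atp5g2, and -0.37, -0.41 and -0.57 for Atp5g3. In CA1 nuclei of the neuron library Atp5g3 stood at -0.86. The catalytic Atp5b had -0.37, -0.31 and -0.47 in dentate granule nuclei, and Atp5a1 had -0.05, -0.28 and -0.31.

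The X-linked members were lower in dentate granule nuclei of each knockout library, with ratios of -0.51, -0.56 and -0.72 for Ndufa1, -0.51, -0.39 and -0.53 for Ndufb11, and -0.24, -0.22 and -0.42 for Cox7b. In CA1 nuclei Ndufa1 had ratios of 0.04, 0.14 and -0.46. Cox6a2 was lower in inhibitory nuclei of each knockout library, with ratios of -0.94 (interval -1.32 to -0.56), -0.76 (-1.22 to -0.31) and -0.91 (-1.35 to -0.47). Pvalb nuclei, with more of it per UMI than other inhibitory nuclei, were 18.7%, 10.0%, 12.5% and 13.0% of inhibitory nuclei in the 4 libraries. Of these Pvalb nuclei, 101 of 202, 279 of 378, 102 of 184 and 109 of 192 held just the minimum number of Pvalb markers. Their median depth was 10671.5, 7141.5, 8782.5 and 10128 UMIs, and the part of depth in these shares was not tested. Within Pvalb nuclei the ratios of Cox6a2 were -1.22 (-1.84 to -0.62), -0.20 (-0.79 to 0.38) and -0.76 (-1.39 to -0.15).

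Short genes were lower as a whole in the knockout libraries, and the members are short, with a median length of 7.46 kb and 54 of the 79 placed members under 10 kb. In dentate granule nuclei of the neuron library, members under 5 kb had a median ratio of -0.69 and other genes of that length -0.23. For 5 to 10 kb the values were -0.47 and -0.10, and for 10 to 30 kb -0.31 and -0.04. In these 3 bins the members' median stood below that of other genes, and both were nearer 0 in the longer bins. Of the 4 longer members, the 2 of 30 to 100 kb had a median of -0.09 and the 2 over 100 kb -0.27, where other genes had 0.00 and 0.02. In the total library the members' medians for the same 3 bins were -0.37, -0.34 and -0.26 and those of other genes -0.25, -0.15 and -0.07. The part of length in the members' ratios was not tested.

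**Figure D5:**
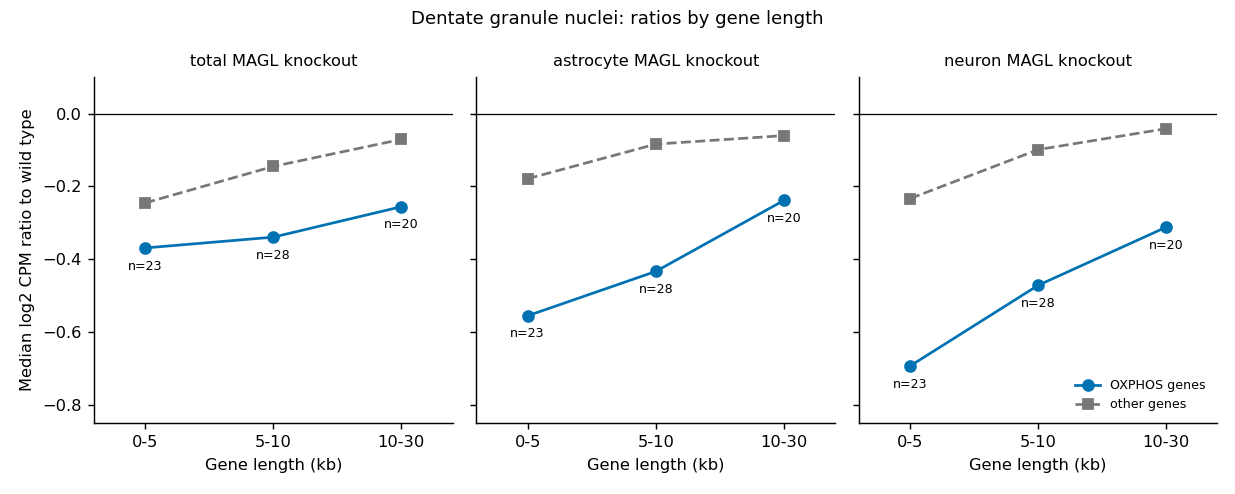
Median log2 CPM ratio to the wild-type library (y axis) in dentate granule nuclei by gene length in kb (x axis, bins with at least 20 members), for the members (circles, with their number) and for other genes (squares), in each knockout library. Members run from -0.69 to -0.31 in the neuron library and other genes from -0.23 to -0.04.

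Transcripts of ribosomal proteins and of the mitochondrial genome, which can enter a nuclear library from the cytoplasm, also differed between libraries. Ribosomal protein transcripts had summed ratios of -0.35, -0.57 and -0.62 in dentate granule and of -0.20, -0.29 and -0.47 in CA1 nuclei. Mitochondrial-genome transcripts had -0.10, -0.90 and -2.26 in dentate granule nuclei and 0.14, -0.44 and -2.38 in CA1 nuclei, so in CA1 nuclei of the total library they stood above wild type where the members stood below. The members' ratios were nearer 0 than the ribosomal ones in dentate granule nuclei of all 3 knockout libraries. In the total library the members were the farther from 0 in CA1 (-0.23 against -0.20), CA2/CA3 (-0.21 against -0.10), other excitatory (-0.23 against -0.14) and inhibitory nuclei (-0.38 against -0.24). The same held in CA2/CA3 nuclei of the neuron library (-0.33 against -0.30). The part of carried-over cytoplasm in the members' ratios was not tested. Genotype, library and preparation cannot be told apart with 1 library each, and fewer transcripts per nucleus cannot be told from a changed makeup of the class.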

How the data were processed

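RNA from hippocampal nuclei of mice was analysed in 4 libraries, built with a 10x Genomics kit for chromatin and RNA of the same nuclei, per the labels' protocols. Only the RNA counts were used. The authors deposited whole-number UMI counts per gene and barcode, without normalization. Cell Ranger ARC 2.0.0 and the mm10 build are named in the submitters' processing notes. The annotation, the use of strand and the selection of barcodes and genes before deposit are stated neither in the labels nor in the files.

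Nuclei with at least 500 genes and at most 5% mitochondrial UMIs were gated by the number of distinct panel markers detected, between 3 and 4 per class. Glial nuclei could hold at most 2 excitatory and 1 inhibitory panel markers. Nuclei that passed more than 1 gate, or neurons with a glial panel, were treated as possible doublets and left out, and no doublet caller was run. For each class and library UMIs were added up and expressed as CPM. Class contrasts used edgeR 4.0.16 (TMM, filterByExpr, robust quasi-likelihood, R 4.3.3) with library as a block, since both classes come from the same library, and Benjamini-Hochberg adjustment over all genes at 0.05. Since the libraries differ in genotype, p-values measure the spread between these 4 libraries. Levels carry Poisson and ratios carry exact conditional binomial intervals at 95%, for counting error only. Ratios needed 100 UMIs, and those for gene-length bins and lists added 1 UMI. The fits were tested on simulated data. Gene places come from GENCODE M21 (GRCm38), near-identical copies (95% over 200 bases) from BLAST 2.17.0, and promoter windows from RefSeq.

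Members named were the 5 largest rises and falls past the threshold per class contrast, the 6 largest past 1.5-fold per knockout library in dentate granule and CA1 nuclei, and a set of core, paralogous, c-ring and X-linked subunits. Members and lists were chosen with earlier results of these data known, and the gate minimums after marker detection was seen. Alternatives were DESeq2 1.42.0 (size factors, Wald test), no count filter, no library block, stricter gates, nuclei of 3000 to 10000 UMIs, deep nuclei left out, male nuclei only, other scalings and folds, and each library left out in turn.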

Additional observations from a re-analysis of the deposited data

How the results depend on the processing

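With 1 library per genotype, depth and nuclei per class set the precision, and glial classes are the least certain. In all settings run, each class contrast kept the direction in which more members were called, except dentate granule against CA1. There, nuclei of 3000 to 10000 UMIs gave 5 higher and 6 lower. The counts themselves moved in every contrast. For dentate granule against CA1 nuclei (23 higher, 4 lower), the DESeq2 Wald test gave 11 and 2 (22.4% and 22.5% of all genes). The fit with no replicate block gave 7 and 2 (23.6% and 23.6%), and depth of 3000 to 10000 UMIs 5 higher (25.6%). For CA2/CA3 against CA1 (2 higher, 22 lower), the Wald test gave 0 and 4, no replicate block 0 and 6, nuclei of 3000 to 10000 UMIs 0 and 2, no count filter 1 higher and the stricter gate 9 lower. For inhibitory against excitatory nuclei (71 higher, 1 lower), no replicate block gave 39 and 0 (27.1% and 25.0% of all genes). With DESeq2 size factors (31.1%) and with deep nuclei left out (29.0%), 2 were lower. For Pvalb nuclei (38 higher), the Wald test gave 20 (11.0% of all genes) and no replicate block 25 (13.3%). For oligodendrocytes (1 higher, 24 lower), 0 were higher with DESeq2 size factors (15.7% of all genes) and with the Wald test (12.9%). Without a count filter (15.4%) and under the stricter gate (17.7%) 2 were higher, and with no replicate block 6 (20.4%). Within that depth range, where 2 libraries remained, 4 were lower (15.5%). For astrocytes (6 higher), the Wald test gave 3 (10.9% of all genes) and the stricter gate 10 (10.5%). The depth range was not run there for lack of nuclei. The replicate block moved no other count by over 1.5 times. Fewer libraries were left within the depth range for CA2/CA3 and oligodendrocytes, and otherwise the cause was not tested.

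Leaving out each library in turn gave 15 to 23 higher and 2 to 4 lower for dentate granule against CA1 (25.4% to 27.7% and 25.3% to 26.7% of all genes). For CA2/CA3 it gave 0 to 2 and 13 to 18 (17.6% to 20.1% and 17.6% to 20.4%). For inhibitory neurons it gave 59 to 67 and 1 to 2 (26.7% to 29.4% and 25.4% to 28.8%). For Pvalb nuclei it gave 26 to 39 higher (13.1% to 15.8%) and 0 lower (14.2% to 16.2%). For oligodendrocytes it gave 0 to 4 and 7 to 26 (11.6% to 17.6% and 23.2% to 31.1%). For astrocytes it gave 1 to 10 higher (8.24% to 10.9%) and 0 lower (15.0% to 18.0%). Without the wild-type or the astrocyte library, 16.9% of members were lower in CA2/CA3, below 17.9% and 18.0% of all genes. Of the single members named, Uqcrfs1 reversed in CA2/CA3 within the depth range (0.0061). Over the single members and settings, 440 values kept their direction and call, or stayed within their counting interval, 68 kept the direction and lost the call, and 18 moved beyond the interval.

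The summed log2 ratios to wild type kept their sign in every setting. In dentate granule nuclei they were -0.24, -0.31 and -0.42 (total, astrocyte, neuron) relative to the median of all genes, -0.30 and -0.38 (total, astrocyte) under the stricter gate, -0.24 and -0.41 (total, neuron) without deep nuclei, -0.39 (neuron) within the depth range, and -0.20, -0.27 and -0.30 in male nuclei. In CA1 nuclei they were -0.42, -0.43 and -0.46 within the depth range, -0.11, -0.10 and -0.25 in male nuclei, and -0.44 (neuron) under the stricter gate. Members lower by more than 1.5-fold in dentate granule nuclei (2, 19 and 30) became 0, 0 and 1 at 2-fold. Of all genes 0.866%, 0.246% and 0.317% were lower by as much. Relative to the median of all genes the members became 1 and 12 (total, astrocyte), at 3.99% and 2.57% of all genes. In male nuclei they became 11 and 11 (astrocyte, neuron), at 2.62% and 2.36%. In CA1 nuclei (4, 5 and 30) they became 1, 0 and 1 at 2-fold (0.447%, 0.157% and 0.362% of all genes). Within the depth range they became 22 and 24 (total, astrocyte), at 6.45% and 4.5%. In male CA1 nuclei they became 2, 1 and 9, at 3.01%, 1.93% and 1.93%.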
